A study of Mus musculus with 7 samples.

Results

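The metabotropic glutamate receptors described here are Grm2, Grm3, Grm4, Grm5, Grm7 and Grm8. They were chosen by gene name, as 6 of the 38924 gene records in the deposited gene table, together with all of their 86 exon bins among the 359565 bins counted. An exon bin is a non-overlapping piece of a gene's exons. Polyadenylated RNA was sequenced from hippocampus dissected from adult mice that had received no treatment, as 7 libraries in 3 groups. Ammon's horn of mice with a homozygous deletion of Khdrbs3 gave 3 libraries (KO Ammon's horn), wild-type dentate gyrus gave 1, and wild-type Ammon's horn gave 3 (WT Ammon's horn). The null allele, called Tstar in the labels, had been backcrossed to C57Bl6 for 8 generations, and the labels name no other allele or agent. Whether a library is 1 animal or a pool is not stated in the labels, and the spread behind each p-value is that among these libraries, which may be technical. The deletion is carried by the whole animal, and Ammon's horn and dentate gyrus are dissected tissues that hold neurons, glia and vessels.

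Metabotropic glutamate receptors are G protein-coupled receptors that respond to glutamate more slowly than the ion channel receptors. Group I receptors, to which mGluR5 (Grm5) belongs, couple to Gq and phospholipase C and lie mainly after the synapse. Group II (mGluR2 and mGluR3, from Grm2 and Grm3) and group III (mGluR4, mGluR7 and mGluR8, from Grm4, Grm7 and Grm8) couple to Gi/o, lower cyclic AMP, and largely act before the synapse to limit transmitter release, while mGluR3 is also found on astrocytes. In the hippocampus mGluR2 is known from the mossy fibres, the axons of dentate granule cells, and mGluR5 from pyramidal cell dendrites. Several of these receptors end in alternative C-terminal tails made by splicing, and KHDRBS3, also called T-STAR or SLM2, is an RNA-binding regulator of splicing in neurons. The comparisons therefore asked whether receptor level or exon use differed between KO and WT Ammon's horn, and between dentate gyrus and WT Ammon's horn.

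In Grm5, Grm7 and Grm8 an annotated alternative coding stretch that changes the C-terminal tail has an exon bin of its own. The stretches are printed because the exon results below turn on whether they are included. They are shown in sense orientation, 5′ to 3′, from GENCODE release M21 transcripts on the GRCm38 (mm10) build. Capitals mark the coding part of the alternative bin, and the 15 bases in lower case before it, and after it where the reading frame goes on, are its neighbours in the transcript.
Grm5 bin 9, chr7:88116193-88116288, plus strand: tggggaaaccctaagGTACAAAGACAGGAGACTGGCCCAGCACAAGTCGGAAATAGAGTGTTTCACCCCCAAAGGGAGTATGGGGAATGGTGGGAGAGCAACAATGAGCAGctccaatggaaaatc
Grm7 bin 16, chr6:111501510-111501601, plus strand: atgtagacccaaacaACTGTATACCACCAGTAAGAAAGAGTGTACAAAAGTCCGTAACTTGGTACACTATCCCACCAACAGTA
Grm8 bin 4, chr6:27285680-27285734, minus strand: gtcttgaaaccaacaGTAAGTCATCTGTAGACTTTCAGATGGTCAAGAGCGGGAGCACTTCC
The Grm5 stretch is 96 bp long, 32 whole codons, and keeps the frame. With it the annotated coding sequence has 1203 codons (the mGluR5b form), and without it 1171 (mGluR5a). The Grm7 bin is 92 bp long, of which 68 bp are coding before the tail ends. The form that holds it has 922 codons (mGluR7b) and the form without it 915 (mGluR7a). The Grm8 bin is 55 bp long, of which 47 bp are coding, and the forms with it (mGluR8b) and without it (mGluR8a) each have 908 codons.

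In the files as a whole, libraries had 50230733 to 67692326 counts in the gene table, and in exon bins 29698245 to 39904606. The deletion was visible in Khdrbs3 exon bin 2, which had 6, 9 and 7 reads in KO Ammon's horn, 506 in dentate gyrus, and 808, 1103 and 964 in WT Ammon's horn. The Khdrbs3 count over the whole gene was not lost, with 198, 203 and 197 CPM (counts scaled to library size, with TMM) in KO Ammon's horn, 78.8 in dentate gyrus, and 142, 143 and 134 in WT Ammon's horn. The tissue labels were set against marker lists. All 9 dentate granule cell markers were detected, with a summed level of 855 CPM in dentate gyrus, and 146 to 183 in KO Ammon's horn, against 152 to 181 in WT Ammon's horn, and 8 of the 9 were higher in dentate gyrus than in WT Ammon's horn (edgeR adjusted p under 0.05). The 7 CA1 pyramidal cell markers summed to 115 CPM in dentate gyrus and 744 to 793 in KO Ammon's horn, against 799 to 833 in WT Ammon's horn, and all 7 were lower in dentate gyrus. The sum of the 7 CA2 and CA3 pyramidal cell markers did not separate the tissues. It was 345 CPM in dentate gyrus and 345 to 354 in KO Ammon's horn, against 347 to 354 in WT Ammon's horn. The 7 oligodendrocyte markers summed to 1501 CPM in dentate gyrus and 3669 to 3925 in KO Ammon's horn, against 4295 to 4458 in WT Ammon's horn. Of these 7, 1 was lower in KO than in WT Ammon's horn (edgeR adjusted p under 0.05), where 0.0745% of all genes tested were called. The 9 choroid plexus markers varied within the groups, with 797, 21.5 and 739 CPM in KO Ammon's horn, 267 in dentate gyrus, and 154, 41.8 and 24.4 in WT Ammon's horn. No marker of these lists was at 0 in every library. In bulk tissue, fewer cells of a type and less RNA per cell cannot be told apart.

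Grm5 was the most abundant of the 6 receptors per length of exon in each of the 7 libraries. Levels are compared between genes only per length, as exon-bin CPM per kilobase of exon bins (RPKM). Over the 7 libraries Grm5 averaged 24.6 RPKM, with a range of 21.0 to 27.5. Grm2 followed with a mean of 9.72 and a range of 6.98 to 23.0, where the highest value is that of the dentate gyrus. Grm7 averaged 8.95 RPKM (8.32 to 10.5) and Grm3 8.30 RPKM (7.48 to 9.15). These 3 are not in a fixed order: Grm2 was above Grm7 in 2 of the 7 libraries, and Grm7 above Grm3 in 5 of 7. Grm4 and Grm8 were the scarcest, with means of 1.52 RPKM (1.05 to 1.83) and 1.10 RPKM (0.863 to 1.36), and Grm4 was above Grm8 in 7 of 7 libraries. That order turned when the gene-table count, introns included, was divided by the same lengths: in WT Ammon's horn Grm4 was then at 1.66 and Grm8 at 2.10 CPM per kilobase. The first place turned when the gene-table count was divided by the length from first to last base, introns included: Grm2 was then highest in every library, with 2.10 to 7.74 CPM per kilobase, beside 0.370 to 0.484 for Grm5. The length of the Grm4 exon bins lay between 5129 and 5323 bp over the gene models that give its bin number, and the longer was used. Of the summed RPKM of the 6 genes, Grm2 made up 32.3% in dentate gyrus, against 15.0% ± 2.06 in WT Ammon's horn, where n = 3 and the error is the SD. For Grm5 the share was 38.6% in dentate gyrus, against 45.9% ± 3.04 (SD, n = 3) in WT Ammon's horn.

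**Figure D1:**
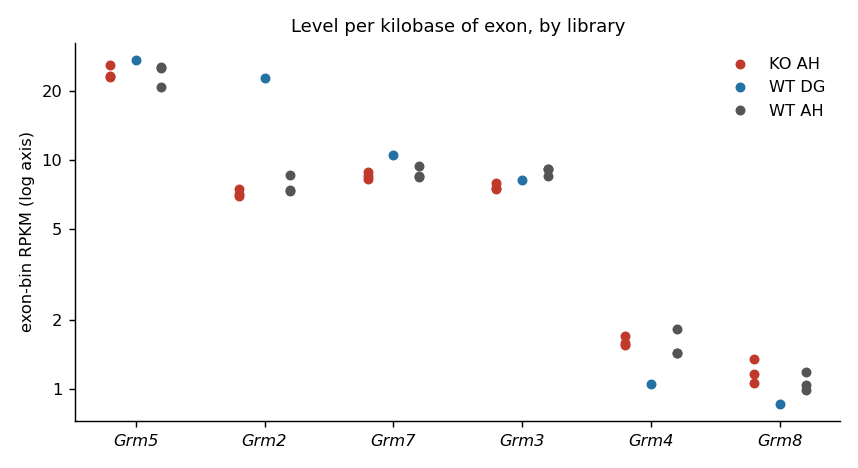
Level of each receptor gene per kilobase of exon, on a log axis in exon-bin RPKM. Each point is 1 library, for KO Ammon's horn (KO AH), wild-type dentate gyrus (WT DG) and WT Ammon's horn (WT AH). Grm5 lies highest in every library, Grm2 reaches 23.0 in the dentate gyrus, and Grm4 and Grm8 lie at or below 1.83.

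No receptor gene passed the test between KO and WT Ammon's horn. With edgeR's quasi-likelihood test and Benjamini-Hochberg adjustment over 22830 genes, 0 of the 6 had an adjusted p under 0.05, where 0.0745% of all genes tested did. DESeq2 and limma-voom also called 0 of the 6, and 1 of the 6 (Grm3) had an unadjusted p under 0.05, against 8.38% of all genes. The adjusted p-values ran between 0.566 and 0.992. The 6 log2 fold changes had a median of 0.0082, beside 0.0015 over all genes tested.

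Group I was represented by Grm5 (ENSMUSG00000049583.8, mm10 chr7:87602544-88134907). Its gene-table level was 216, 246 and 226 CPM in KO Ammon's horn, and 238, 197 and 237 CPM in WT Ammon's horn. The groups overlap, with the lowest library in WT Ammon's horn and the highest in KO. The log2 fold change was 0.03 (SE 0.08, 95% interval -0.15 to 0.21).

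In group II, Grm2 (ENSMUSG00000023192.7, chr9:106644537-106656109) had 24.3, 28.0 and 28.3 CPM in KO Ammon's horn, against 26.2, 30.5 and 27.2 CPM in WT Ammon's horn, and the groups overlap. Its log2 fold change was -0.06 (SE 0.08). Grm3 (ENSMUSG00000003974.5, chr5:9485236-9725352) had 29.7, 31.2 and 28.7 CPM in KO Ammon's horn, against 33.7, 31.3 and 34.0 CPM in WT Ammon's horn. Each KO library was below each WT library, by as little as the distance between 31.2 and 31.3 CPM, and 13.2% of all genes tested had groups free of overlap in either direction. The Grm3 log2 fold change was -0.14 (SE 0.06, edgeR unadjusted p = 0.0419, adjusted p = 0.566). From the exon bins alone it was -0.22 (SE 0.07, edgeR unadjusted p = 0.00743, adjusted p = 0.503), with 26.5, 28.2 and 26.8 CPM in KO Ammon's horn, and 32.3, 30.3 and 32.3 CPM in WT Ammon's horn. Neither value passed the adjusted threshold, and in the exon-bin form 0.0523% of all genes did, with 7.35% at an unadjusted p under 0.05. The 8 astrocyte markers, given because mGluR3 is also an astrocyte receptor, summed to 2305, 2180 and 2090 CPM in KO Ammon's horn, and to 2257, 2231 and 2362 CPM in WT Ammon's horn. None of the 8 passed the test between these groups or was at 0 in every library, and their part in the Grm3 values was not tested.

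In group III, Grm4 (ENSMUSG00000063239.10, chr17:27422387-27513341) had 8.71, 8.93 and 8.99 CPM in KO Ammon's horn, and 8.46, 9.85 and 8.19 CPM in WT Ammon's horn. Grm7 (ENSMUSG00000056755.7, chr6:110645581-111567230) had 61.6, 68.7 and 64.4 CPM in KO Ammon's horn, and 62.9, 62.7 and 67.8 CPM in WT Ammon's horn. Grm8 (ENSMUSG00000024211.9, chr6:27275121-28135178) had 16.7, 16.6 and 17.7 CPM in KO Ammon's horn, and 18.1, 15.8 and 15.6 CPM in WT Ammon's horn. All 3 overlap between the groups. The log2 fold changes were 0.0070 for Grm4 (SE 0.09), 0.0094 for Grm7 (SE 0.06) and 0.04 for Grm8 (SE 0.08). Over the 6 receptors, the outermost bounds of the 95% intervals were -0.28 for Grm3 and 0.22 for Grm8 from the gene table, and -0.37 for Grm3 and 0.42 for Grm8 from exon-bin sums.

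**Figure D2:**
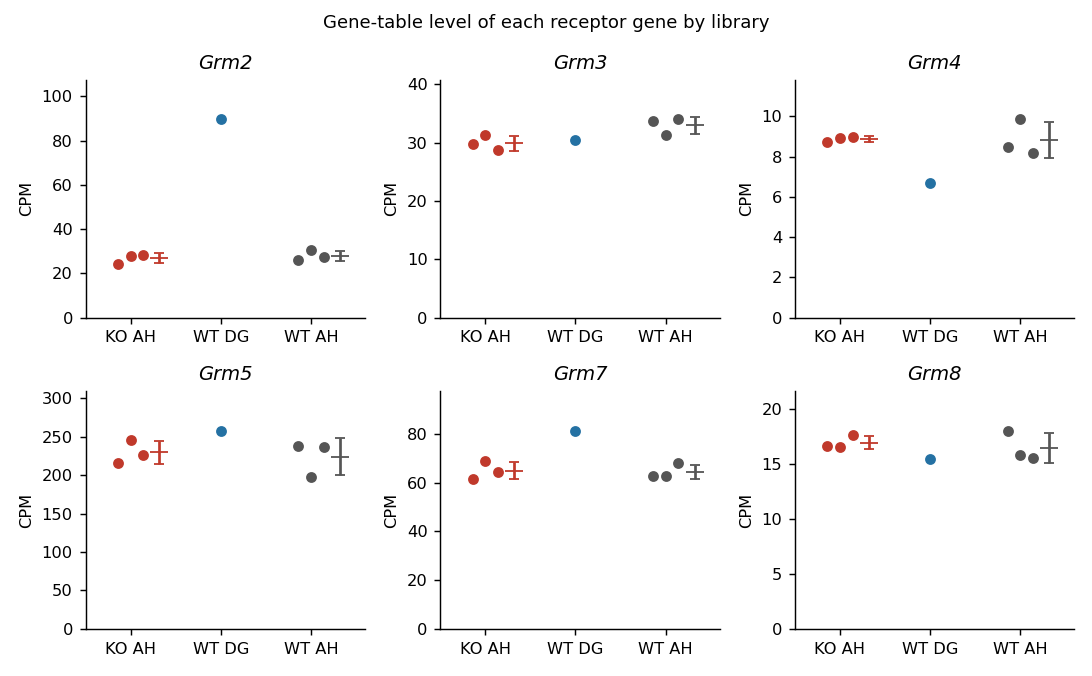
Gene-table level of each receptor gene in CPM, with 1 point per library and, beside each group of 3, the mean with its SD. Grm2 stands at 89.6 CPM in the dentate gyrus, against 26.2 to 30.5 in WT Ammon's horn, and the 3 KO and 3 WT Ammon's horn libraries overlap for every gene except Grm3.

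In the dentate gyrus Grm2 was 3.20-fold higher than in WT Ammon's horn, and Grm7 1.26-fold higher. These were the 2 of the 6 receptors with an adjusted p under 0.05, both in the higher direction, where 22% of the 24486 genes tested were called (11.2% of the genes tested as higher and 10.9% as lower). The dentate gyrus was a single library, whose spread was taken in the fit from the Ammon's horn libraries, so its values have no replicate check. The comparison shares its WT Ammon's horn libraries with the KO comparison, and the 2 sets of fold changes are therefore not independent.

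Grm2, the group II receptor of granule cell axons, had 89.6 CPM in dentate gyrus, against 26.2, 30.5 and 27.2 CPM in WT Ammon's horn. The dentate gyrus value lay above all 3 WT libraries. The log2 fold change was 1.68 (SE 0.10, 95% interval 1.46 to 1.90, edgeR adjusted p = 3.6e-06), and among all genes tested Grm2 ranked 37 by p-value and 283 by log2 fold change. From exon bins alone it was 1.56 (SE 0.10, edgeR adjusted p = 8.4e-07), with 76.3 CPM in dentate gyrus, against 24.5, 28.5 and 24.7 CPM in WT Ammon's horn. By the sums given above, the granule cell markers moved the same way, and the CA1 and oligodendrocyte markers the other way. The CA2 and CA3 sum stayed level, but its members moved in both directions. Cpne4 had 129 CPM in dentate gyrus, against 101 to 106 in WT Ammon's horn, and Map3k15 60.9 CPM, against 80.4 to 89.4. The 4 mossy cell markers summed to 188 CPM in dentate gyrus, against 135 to 140 in WT Ammon's horn. The 10 interneuron markers summed to 660 CPM, against 806 to 867. Both lists had members that went the other way, such as Ociad2 and Reln. The part of these cell types in the Grm2 difference was not tested. Grm3, the other group II gene, had 30.5 CPM in dentate gyrus, against 33.7, 31.3 and 34.0 CPM in WT Ammon's horn. It was just below the WT range and did not pass the test (edgeR adjusted p = 0.404, log2 fold change -0.11, SE 0.09). The dentate gyrus library fell outside the WT range for 71.8% of all genes tested.

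Among the group III receptors, Grm7 had 81.3 CPM in dentate gyrus, against 62.9, 62.7 and 67.8 CPM in WT Ammon's horn. Its log2 fold change was 0.33 (SE 0.08, 95% interval 0.16 to 0.51, edgeR adjusted p = 0.0120). From exon bins it was 0.26 (SE 0.09, edgeR adjusted p = 0.0437). At the start of Grm7 the gene table also lists Gm20387 on the opposite strand, with 127 to 210 counts per library. The use of strand in the counting is not given in the sources used here, so reads of the 2 genes cannot be told apart where they overlap.

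Grm4 had 6.67 CPM in dentate gyrus, against 8.46, 9.85 and 8.19 CPM in WT Ammon's horn. The dentate gyrus value was below all 3 WT libraries, and the log2 fold change of -0.41 did not pass the test (SE 0.14, edgeR adjusted p = 0.0623). From exon bins alone it did pass, at -0.58 on the log2 scale (SE 0.18, edgeR adjusted p = 0.0318), where 29.3% of the genes tested in that form were called and 14.5% were called as lower. Without the library WT Ammon's horn 3 the gene-table value was -0.46 (edgeR adjusted p = 0.0449), and with a filter of at least 1 CPM in 3 libraries it was -0.41 (edgeR adjusted p = 0.0447). Grm8 had 15.5 CPM in dentate gyrus, against 18.1, 15.8 and 15.6 CPM in WT Ammon's horn, and did not pass (log2 fold change -0.09, SE 0.12, edgeR adjusted p = 0.640).

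Grm5 had 258 CPM in dentate gyrus, against 238, 197 and 237 CPM in WT Ammon's horn. It was the highest library of the series for this gene, but its log2 fold change of 0.20 did not pass the test (SE 0.11, 95% interval -0.05 to 0.45, edgeR adjusted p = 0.236). Over the 6 receptors the median log2 fold change was 0.06, beside -0.01 over all genes tested.

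**Figure D3:**
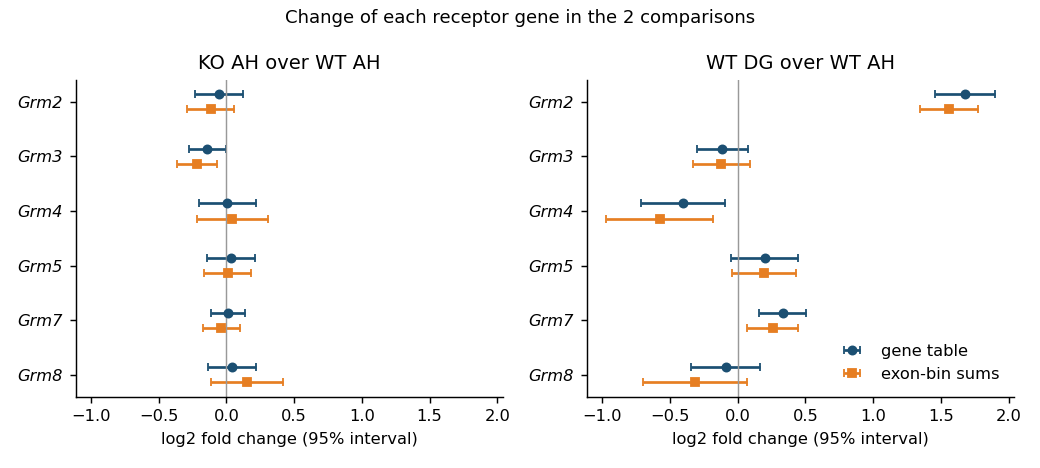
Log2 fold change of each receptor gene with its 95% interval, for KO over WT Ammon's horn on the left and for dentate gyrus over WT Ammon's horn on the right, from the gene table (circles) and from exon-bin sums (squares). On the left every estimate lies between -0.22 and 0.15, and on the right Grm2 stands at 1.68 and 1.56.

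The gene table spans introns, and the exon bins do not. Over all genes the gene table held more counts than the exon bins, with 58527330 against 34191866 in dentate gyrus. The gene-table count was 1.66 to 2.10 times the exon-bin sum over all libraries for Grm2, Grm3, Grm4 and Grm5. For Grm7 the ratio was 2.05 to 2.31. For Grm8, with 860058 bp from end to end and 7850 bp of exon bins, it was 3.18, 3.38 and 2.79 in KO Ammon's horn, 4.03 in dentate gyrus, and 3.37, 3.53 and 3.18 in WT Ammon's horn. The ratio of Grm8 was highest in dentate gyrus, where its log2 fold change was -0.09 from the gene table and -0.31 from exon bins (SE 0.18, edgeR adjusted p = 0.209). This was not particular to Grm8. Dentate gyrus also had the highest ratio of all libraries for Grm2 (2.07), Grm4 (2.10), Grm5 (1.89) and Grm7 (2.31), though not for Grm3 (1.85). For every receptor the dentate gyrus log2 fold change was lower from exon bins than from the gene table. How many of all genes show either pattern was not computed, so neither can be called particular to the receptors. The gene table and the exon bins need not count a read in the same way, so the ratio is not a share of intron reads.

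No exon bin of the receptors passed the test of usage in either comparison. Of the 86 bins, 20 had under 10 reads in every library, 6 of them 0, and 61 were tested in each comparison. The exon reads of a gene are the sum of its bin counts, and a read that touches neighbouring bins may count in each. Bin 1 of Grm7, which is 1 bp long and adjoins bin 2, had 5 to 12 reads. The exact intervals on dentate gyrus shares below treat all counts as separate reads, which they need not be. With edgeR's test of exon usage, which compares a bin with the rest of its gene, 0 of the 61 bins had an adjusted p under 0.05 between KO and WT Ammon's horn, where 0.00301% of 166154 bins did. Between dentate gyrus and WT Ammon's horn it was also 0 of 61, where 0.213% of 169072 bins were called. limma's diffSplice called 0 of the 61 in both comparisons. At an unadjusted p under 0.05 there were 2 bins in the KO comparison, against 1.72% of all bins tested, and 3 in the dentate gyrus comparison, against 3.89%.

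The alternative exon of Grm5 held between 2.35% and 2.92% of that gene's exon reads in every library. Bin 9 had 2.35%, 2.38% and 2.42% in KO Ammon's horn, 2.40% in dentate gyrus (exact 95% Clopper-Pearson interval 2.09 to 2.75%, counting error only), and 2.35%, 2.37% and 2.92% in WT Ammon's horn. The log2 usage difference was -0.10 in KO (SE 0.19, unadjusted p = 0.617) and -0.08 in dentate gyrus (SE 0.26, unadjusted p = 0.745), both from edgeR. Set against bin 7, a constitutive coding exon of 127 bp, it had 0.94 ± 0.14 times the reads in KO Ammon's horn, 0.85 times in dentate gyrus, and 0.92 ± 0.03 times in WT Ammon's horn (SD, n = 3 each for Ammon's horn). Bin 12, a stretch of 3253 bp in the 3′ untranslated region, took 45.5%, 39.9% and 43.6% in KO Ammon's horn, 39.7% in dentate gyrus, and 46.1%, 42.3% and 36.8% in WT Ammon's horn.

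In Grm7 the mGluR7b exon, 92 bp of the 5886 bp of exon bins, was a small part of the reads. Bin 16 had 20, 15 and 14 reads in KO Ammon's horn, 26 in dentate gyrus, and 12, 7 and 19 in WT Ammon's horn. As a share of the exon reads of Grm7 these are 0.966% ± 0.190 (SD, n = 3) in KO Ammon's horn, 1.19% in dentate gyrus (exact 95% Clopper-Pearson interval 0.778 to 1.74%), and 0.701% ± 0.313 (SD, n = 3) in WT Ammon's horn. The groups overlap between KO and WT. Bin 9 is a constitutive coding exon of 140 bp. Set against it, bin 16 had 0.168 ± 0.030 times the reads in KO Ammon's horn and 0.177 times in dentate gyrus. In WT Ammon's horn it had 0.129 ± 0.053 times (SD, n = 3 each for Ammon's horn). The log2 usage changes of 0.46 in KO (SE 0.32, edgeR unadjusted p = 0.171) and 0.77 in dentate gyrus (SE 0.40, edgeR unadjusted p = 0.0654) did not pass. The Grm7 bin with the smallest p in the KO comparison was bin 2, the 805 bp first coding exon at chr6:110645582-110646386, with 4.93% ± 0.589 in KO Ammon's horn and 6.12% ± 1.18 in WT Ammon's horn (SD, n = 3 each). Its log2 usage change was -0.32 (SE 0.14, edgeR unadjusted p = 0.0303), and it overlaps Gm20387.

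The mGluR8b stretch of Grm8 was too thinly covered for the test. Bin 4 had 6, 2 and 7 reads in KO Ammon's horn, 0 in dentate gyrus, and 5, 10 and 11 in WT Ammon's horn. Its share of the Grm8 exon reads was 1.92%, 0.656% and 2.18% in KO Ammon's horn, against 1.78%, 3.23% and 3.75% in WT Ammon's horn, so the groups overlap. Set against bin 5, the other part of the same exon, it had 0.207, 0.0714 and 0.233 times the reads in KO Ammon's horn, 0 in dentate gyrus, and 0.333, 0.303 and 0.500 in WT Ammon's horn. On this ratio each KO library was below each WT library, from at most 11 reads of bin 4. Bin 5 had 15 to 33 reads in these libraries. The ratio was not tested, and how often such ratios are free of overlap over all bins was not computed. By share of exon reads, 9.9% of all bins tested between KO and WT were free of overlap. In dentate gyrus the share was 0 of the 239 counts summed over the Grm8 bins. If these were separate reads, this would allow up to 1.26% by the limit of 3 counts. By the exact 95% Clopper-Pearson interval it would allow up to 1.53%. Bins 8 and 12 of Grm8, both constitutive coding exons, each had an unadjusted edgeR p under 0.05 in 1 comparison. Bin 8 (chr6:27618485-27618685) held 5.03% ± 1.12 in KO Ammon's horn and 7.53% ± 2.75 in WT Ammon's horn (SD, n = 3 each), a log2 usage change of -0.62 (SE 0.30, edgeR unadjusted p = 0.0443). Bin 12 (chr6:27762362-27762497) held 6.69% in dentate gyrus, from 16 reads, against 3.56%, 3.23% and 3.07% in WT Ammon's horn, a log2 usage change of 1.02 (SE 0.50, edgeR unadjusted p = 0.046).

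**Figure D4:**
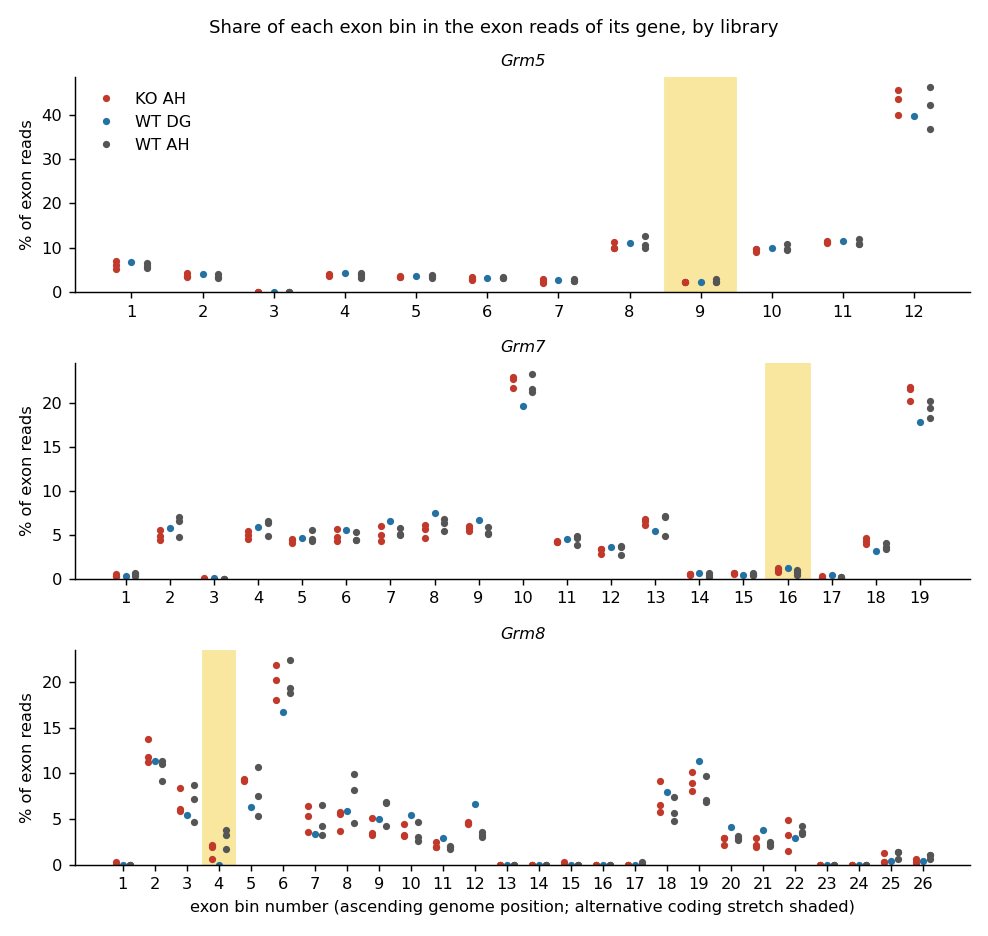
Share of each exon bin in the exon reads of its gene, in percent, for Grm5, Grm7 and Grm8, with 1 point per library. The alternative coding stretches are shaded (bin 9 of Grm5, bin 16 of Grm7 and bin 4 of Grm8), and in each the KO and WT Ammon's horn libraries overlap.

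In Grm2, the 2 bins at the 3′ end held a smaller share in dentate gyrus: bin 1 (chr9:106644537-106645091) 16.7%, against 20.9%, 23.1% and 19.5% in WT Ammon's horn, and bin 2 (chr9:106645297-106645477) 9.51%, against 13.0%, 11.9% and 11.7%. Both shares lie below all 3 WT libraries, and the log2 usage changes were -0.36 each (SE 0.14 and 0.16, edgeR unadjusted p = 0.0142 and 0.0366, adjusted p = 0.982 and 1). In dentate gyrus 33 of the 61 receptor bins tested had a share outside the WT range, where 52.9% of all bins with a share did. In the KO comparison bin 2 had the smallest p in Grm2 (log2 usage change -0.13, SE 0.14). In Grm3 no bin had an unadjusted p under 0.05 in either comparison, and usage changes lay between -0.29 and 0.16. The smallest p belonged to bin 2 in KO (-0.08, SE 0.12) and bin 4 in dentate gyrus (0.16, SE 0.13). In Grm4 bin 2 held 17.3%, 23.7% and 22.8% in KO Ammon's horn, all below the 25.9%, 27.4% and 26.8% of WT Ammon's horn, with a log2 usage change of -0.33 (SE 0.17, edgeR unadjusted p = 0.0572). It was 1 of 3 receptor bins among the 61 tested whose shares were free of overlap between KO and WT, where 9.9% of all bins tested were. The others, both with larger shares in KO, were Grm4 bin 3, with 9.62%, 9.21% and 10.6% in KO Ammon's horn, against 7.76%, 9.04% and 8.09% in WT Ammon's horn, and Grm8 bin 12, with 4.49%, 4.59% and 4.67% in KO Ammon's horn, against the WT shares given above. Their unadjusted edgeR p-values were 0.397 and 0.235. Bin 11 of Grm4 held 2.02% in dentate gyrus, from 4 reads, against 6.03%, 3.88% and 5.88% in WT Ammon's horn (edgeR unadjusted p = 0.0609). Bins 2 to 13 of Grm4 are given by number only, since more than 1 placement of these bins fits the gene models. The alternative 3′ end of Grm4, bin 1 at chr17:27422387-27422781, had at most 1 read in any library. In Grm5 the bins with the smallest p were bin 8 in KO and bin 2 in dentate gyrus, with log2 usage changes of -0.08 and 0.22.

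Around the receptors, the genes of 4 lists were examined: Gq signalling (19 genes), Gi/o signalling (22), receptor scaffolds, partners and regulators (32), and glutamate release and uptake (12). All were detected and tested. Between KO and WT Ammon's horn 0 genes of the 4 lists were called by edgeR. At an unadjusted p under 0.05 there were 1 gene of the Gi/o list, 2 of the scaffold list and 0 of the others, where 8.38% of all genes tested were at that level and 0.0745% were called. DESeq2 and limma-voom also called 0 genes of the 4 lists. Median log2 fold changes of the lists lay between -0.03 and -0.01. The smallest p in each list belonged to Gnaq, the Gq alpha subunit, with a log2 fold change of -0.09 (SE 0.05), Gnai2, a Gi alpha subunit, with -0.14 (SE 0.05), Calm3, a calmodulin gene, with -0.14 (SE 0.05), and Slc7a11, the cystine-glutamate exchanger, with -0.16 (SE 0.08).

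In the dentate gyrus, 1 gene of the Gq list was higher and 6 were lower than in WT Ammon's horn, 12 did not pass, and the median log2 fold change was -0.06, beside -0.01 over all genes tested. Prkcb, a conventional protein kinase C activated downstream of phospholipase C, was lower, with a log2 fold change of -0.82 (490.5 CPM in dentate gyrus, against 864 ± 20.4 in WT Ammon's horn). Itpr1, the IP3 receptor that releases stored calcium, was lower, at -0.70 (217 CPM in dentate gyrus, against 352 ± 29.2 in WT Ammon's horn). Plcb2, a phospholipase C, was low in both tissues, with 0.933 CPM in dentate gyrus, against 2.36 ± 0.23 in WT Ammon's horn (log2 fold change -1.34). Here and below the error is the SD over the 3 WT libraries, and the named genes had edgeR adjusted p-values between 3.9e-05 and 0.0439.

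In the Gi/o list 5 genes were higher, 7 lower and 10 did not pass, with a median of -0.03. Adcy1, a calcium-stimulated adenylyl cyclase, was higher by a log2 fold change of 1.28, with 968 CPM in dentate gyrus, against 399.8 ± 13.3 in WT Ammon's horn, while Adcy5, another adenylyl cyclase, was lower, at -0.54. The G protein gamma subunit genes also differed in direction, with Gng7 higher by 0.43 and Gng3 lower, at -0.74. In the scaffold list 4 were higher, 10 lower and 18 did not pass, with a median of -0.04. Homer2, a scaffold that binds the tail of group I receptors, was lower, at -1.03, with 36.0 CPM in dentate gyrus, against 73.3 ± 5.09 in WT Ammon's horn. Rgs4, which shortens Gq and Gi/o signals, was lower, at -0.72. Nedd4, a ubiquitin ligase, was higher by 0.52, and Ncdn (neurochondrin), a neuronal protein reported to bind mGluR5, by 0.39. In the release and uptake list 1 gene was lower and 11 did not pass, with a median of -0.10: Slc17a7, the vesicular glutamate transporter VGLUT1, had 1114 CPM in dentate gyrus, against 1339 ± 99.3 in WT Ammon's horn (log2 fold change -0.27). The share called in each direction was 11.2% and 10.9% over all genes, as given above.

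**Figure D5:**
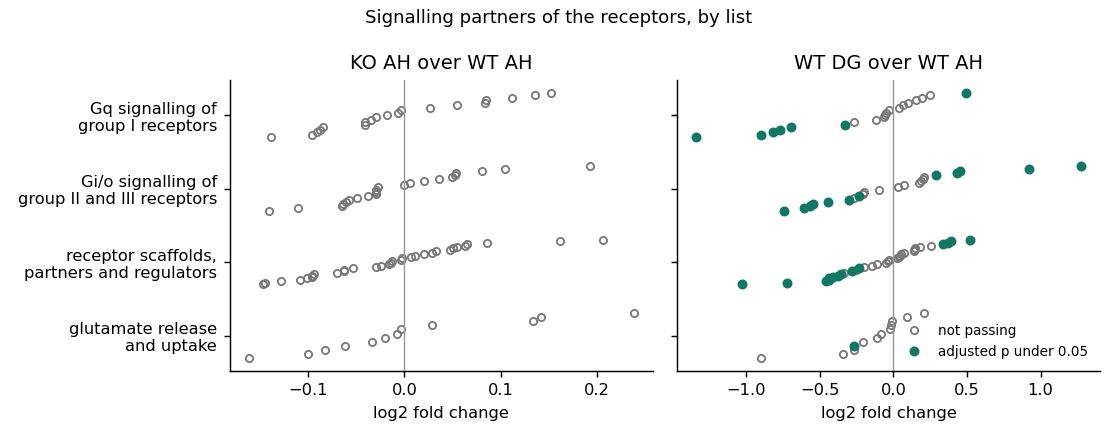
Log2 fold change of each gene of the 4 lists, for KO over WT Ammon's horn on the left and dentate gyrus over WT Ammon's horn on the right, where filled circles have an edgeR adjusted p under 0.05. The horizontal scales differ: on the left all genes lie between -0.16 and 0.24 and none is filled, and on the right the filled genes run from Plcb2 at -1.34 to Adcy1 at 1.28.

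The genes whose levels followed each receptor most closely over the 7 libraries were taken as the 3 protein-coding genes with the highest Pearson correlation of log2 CPM, among 11896 genes of at least 5 CPM. With 7 libraries that share depth and tissue, these correlations are a description only. For Grm2 they included 9930013L23Rik and Mta2 (r = 0.998 and 0.996). There were 393 genes at r of at least 0.95, and without the dentate gyrus library these values were 0.923 and 0.903. For Grm7 they were Ttc28, Snrnp200 and Med13l (r = 0.998, 0.997 and 0.992), among 282 genes at that level. For Grm3 they were Ntn1, Gcdh and Pip4k2b (r = 0.967, 0.949 and 0.946), for Grm4 1700021F05Rik, Exosc5 and Gtf3a (0.993, 0.988 and 0.987), for Grm5 Zfp239, Enah and Nlgn1 (0.982, 0.981 and 0.975), and for Grm8 Sypl, Wasl and Nox1 (0.989, 0.980 and 0.969).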

How the data were processed

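The authors deposited raw counts, not normalised, as a table of counts per gene from first to last base and as counts per exon bin in 1 file per library. Per the submitters' processing notes the build was mm10, and the tools, given without roles, include bedtools 2.17.0, TopHat2 2.0.8b, DESeq2 1.0.19 and Trim Galore 0.3.5. Identifiers with GENCODE M2 versions were kept, and exon bins were placed by rebuilding them from GENCODE M21 models on the same build, keeping models that gave the deposited number of bins and at least 0.1 of the median read density in each shared exon. For Grm4 this kept 4 different placements, so its bins 2 to 13 have no single position. Grm8 bins are joined with Mir592, which had 0 counts.

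The gene table was analysed with edgeR 4.0.16 under R 4.3.3 (TMM scaling, filterByExpr, quasi-likelihood F test) and exon bins with diffSpliceDGE, for bins that reached 10 reads in 3 or more libraries, in genes with 2 or more such bins. Fits covered all genes or bins, with Benjamini-Hochberg adjustment over all of them and calls at 0.05. The dentate gyrus fit took all 7 libraries and the KO fit the 6 from Ammon's horn. Both were tested on simulated data that gave all libraries the same spread, so the spread borrowed for the dentate gyrus library was not checked. DESeq2 1.42.0 and limma 3.58.1 were alternatives, beside other scaling, filters, exon-bin sums and leaving out each library.

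The text names the 6 genes, their bins with the smallest p, annotated alternative coding bins, up to 4 called genes of each list (otherwise the gene with the smallest p) and the 3 genes of closest pattern; genes among these that the text does not name are not reported here. The members and lists were chosen with earlier results of these data known.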

Additional observations from a re-analysis of the deposited data

How the results depend on the processing

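Under all 14 alternatives at gene level, 0 of the 6 receptors were called between KO and WT Ammon's horn, and under all 10 alternatives at exon level 0 of their bins were called in either comparison. In the dentate gyrus comparison Grm2 and Grm7 were called under each of the 14, with log2 fold changes of 1.56 to 1.75 and 0.26 to 0.37. Grm4 was also called with exon-bin sums (-0.58), with a filter of 1 CPM in 3 libraries (-0.41, edgeR adjusted p = 0.0447) and without WT Ammon's horn 3 (-0.46); over its alternatives the adjusted p ran between 0.0318 and 0.127. For these changes the cause was not tested.

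Of 168 receptor fold changes under an alternative, 11 changed sign, all in the KO comparison and none called. With exon-bin sums Grm7 was -0.0391. Leaving out 1 library, the KO value ran between -0.0986 and 0.0117 for Grm2, -0.0458 and 0.0906 for Grm4, -0.054 and 0.0815 for Grm5, and -0.0334 and 0.0476 for Grm7. The usage change ran between -0.162 and 0.0397 for Grm5 bin 8 in KO, and for Grm5 bin 9 between -0.157 and 0.0273 in KO and -0.147 and 0.037 in dentate gyrus.

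The number of all genes called between KO and WT was 17, and it was 119 with DESeq2, 10 with limma-voom, 8 with exon-bin sums and 4 without mitochondrial genes. Without 1 library it ran between 11 and 55 (11 without KO 1, 55 without KO 2, 11 without WT 2). The number of bins called was 5, and 5 to 8 without 1 library (8 without KO 3 or WT 2). In the dentate gyrus comparison 360 bins were called, 553 with limma's diffSplice and 196 to 512 without 1 library (196 without WT Ammon's horn 1).

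The mean level per kilobase in WT Ammon's horn depends on what is counted. With the gene-table count over the exon-bin length it was 9.33 CPM per kilobase for Grm3, 11.0 for Grm7 and 2.10 for Grm8, against 8.95, 8.81 and 1.07 from exon bins, and Grm8 was then above Grm4. Over the length from first to last base it was 2.41 for Grm2, 0.137 for Grm3, 0.0971 for Grm4, 0.421 for Grm5, 0.0700 for Grm7 and 0.0192 for Grm8, so that Grm2 and not Grm5 was highest.

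No paired analysis was possible because the labels give the libraries no replicate numbers. Depth limits Grm4 and Grm8 most, since 5 of the 17 Grm4 bins and 12 of the 26 Grm8 bins had under 10 reads in every library, and the dentate gyrus values rest on 1 library.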
